A study of Mus musculus with 12 samples.

Results

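The genes described here encode the subcortical maternal complex of the mammalian egg and its partners. They were chosen by name as a list of 8 (Nlrp5, Tle6, Ooep, Khdc3, Padi6, Nlrp2, Nlrp4f and Zbed3), and all 8 were listed in both expression tables of the series, which hold 17012 genes in common and 20244 in all. The material was mouse 2-cell embryos (CF1 mice in the knockdown experiment), in 4 groups of 2 libraries (replicates A and B). Control embryos (genotype label WT) received mRNA of RfxCas13d, an RNA-cutting enzyme, alone, and knockdown embryos (genotype label Eif1ad3_KD) received it together with guide RNA against Eif1ad3 and its variants; the samples' protocol differs from this design text and names morpholino oligos with Cas13d protein, injected into oocytes. The His and IgG libraries (genotype label Eif1ad3_OE for both) came from embryos that received, as zygotes, synthetic mRNA encoding Eif1ad3 with a His tag at 200 ng/uL. Lysates (200 cells per replicate) were pulled down on anti-His beads, or on IgG beads as the negative control. The tagged transcript thus came from injected mRNA and not from the embryo's own locus, and it was present in the IgG libraries' embryos too.

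The subcortical maternal complex is a protein assembly beneath the membrane of the oocyte and of the cleaving embryo. Its messages are made while the oocyte grows, and much of the maternal RNA is cleared around the time the embryo's own genome becomes active, whereas the proteins persist through cleavage. Embryos whose mothers lack core members such as Nlrp5, Tle6 or Ooep usually stop dividing soon after the first cleavage. The complex is also tied to the cytoplasmic lattices, the fibres of the egg that need Padi6 and store proteins for the embryo.

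Promoter windows are shown for the 3 members in which the letters TAATTA or TAATTG were found. RefSeq windows (build GRCm38.p6; 250 bases before to 50 after an annotated start) matched all 8 members, with 12 windows in all because Nlrp5, Tle6 and Zbed3 have more than 1 start. The letters TAATTA and TAATTG, the core bound by homeobox factors such as the oocyte regulator Nobox, were searched on both strands and are in capitals. The 3 windows that hold one belong to Nlrp5 (chr7:23385639-23385938, + strand), Ooep (chr9:78378539-78378838, - strand) and Padi6 (chr4:140742594-140742893, - strand), each printed on the gene's strand; in Ooep and Padi6 the capitals read CAATTA, the reverse complement of TAATTG.
Nlrp5: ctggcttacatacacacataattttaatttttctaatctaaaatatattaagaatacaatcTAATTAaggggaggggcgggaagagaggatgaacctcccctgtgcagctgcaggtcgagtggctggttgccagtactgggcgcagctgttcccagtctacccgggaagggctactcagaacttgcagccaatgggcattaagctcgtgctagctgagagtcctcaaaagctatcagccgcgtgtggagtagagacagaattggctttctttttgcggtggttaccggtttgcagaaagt
Ooep: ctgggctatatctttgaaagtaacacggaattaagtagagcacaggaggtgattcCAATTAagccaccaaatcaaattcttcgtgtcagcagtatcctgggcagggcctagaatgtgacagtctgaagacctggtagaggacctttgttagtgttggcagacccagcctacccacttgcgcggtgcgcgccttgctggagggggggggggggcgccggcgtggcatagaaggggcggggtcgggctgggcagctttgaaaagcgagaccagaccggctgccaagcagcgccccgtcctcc
Padi6: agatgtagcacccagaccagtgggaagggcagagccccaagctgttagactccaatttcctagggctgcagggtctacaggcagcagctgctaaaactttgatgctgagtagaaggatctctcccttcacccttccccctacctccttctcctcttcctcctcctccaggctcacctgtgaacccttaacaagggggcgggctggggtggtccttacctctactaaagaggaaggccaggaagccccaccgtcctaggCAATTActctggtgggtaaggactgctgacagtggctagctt
TAATTA was in 1 of the 12 member windows and in 5.29% of the 32851 windows counted, and TAATTG was in 2 of 12 and in 8% of those counted. Windows of 1 chromosome, which holds no member, were left out of this count. The E-box CANNTG, searched the same way on both strands and able to share letters with the other motifs, was in 11 of 12 member windows against 72.3% of those counted, and TATAAA was in 2 of 12 against 13.6%. A match describes letters in the window and is not a measured binding site.

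Libraries held 18173916 to 27902514 reads in the table of control and knockdown embryos and 4678563 to 8364126 in the pulldown table. Values are CPM, reads of a gene scaled to a common library total, and a floor of 3 reads was 0.108 to 0.165 CPM in the first table and 0.359 to 0.641 CPM in the second. Because each table has its own normalization, no test crosses from one to the other. The labels do not say that replicates came from separate pools of embryos, so p-values measure the spread between these libraries, which may be technical. The targeted gene Eif1ad3 was at 839 and 663 CPM in control A and B and at 277 and 377 CPM in knockdown A and B, lower in both. The 10 of 10 listed 2-cell markers summed to 3605 to 4990 CPM in these libraries, while the 5 of 12 listed cumulus or granulosa cell markers summed to 20.3 to 35.9 CPM. No transcript lengths were used, so levels are compared within a gene, and reads of different genes only as shares of a library.

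Control embryos held RNA of all 8 members. The members together took 0.477% and 0.398% of the reads of control A and B (119329 and 99098 reads), most of them from Zbed3 (60.1% and 51.2% of the members' CPM) and Nlrp4f (28.8% and 36.7%). Khdc3 gave the fewest reads, 143 and 92. In the knockdown libraries the same sum was 0.878% of reads in replicate A and 0.224% in replicate B (245017 and 40776 reads), so that one knockdown library lay above both controls and the other below both.

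The pattern was shared by the members one by one. In all 8, knockdown replicate B lay below both control libraries, an arrangement found in 46.7% of the 13332 genes tested. In 7 of 8, knockdown replicate A also lay above both controls (45.5% of all genes), so that the controls fell between the knockdown libraries; 19.1% of all tested genes had this order, and 8.21% had the opposite order, which no member showed. The groups therefore overlapped for every member, whereas 36.5% of tested genes had groups that did not overlap (18.1% higher and 18.4% lower in the knockdown). The difference between knockdown A and B on the log2(CPM + 1) scale was above 0 in 8 of 8 members with a median of 1.86 (range 1.23 to 4.23), and above 0 in 62.5% of all tested genes with a median of 0.30. Between control A and B the members' median difference was 0.27 (range -0.83 to 0.87), and that of all genes was -0.06.

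**Figure D1:**
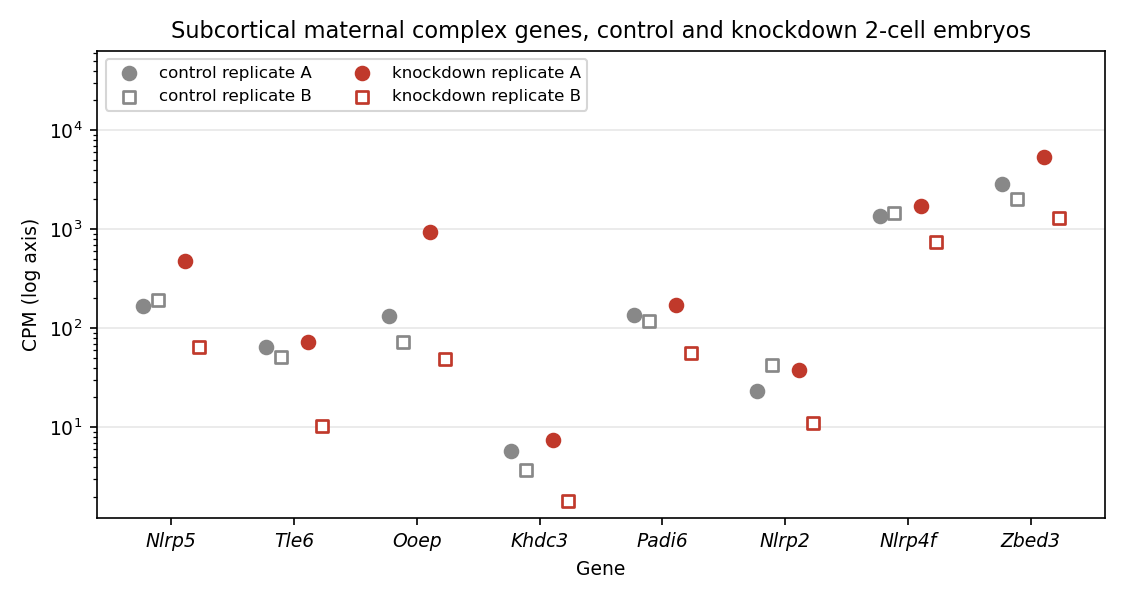
CPM (log axis) of the 8 genes in the control (grey) and knockdown (red) libraries, with filled circles for replicate A and open squares for replicate B. The open red square is the lowest point for every gene, and the filled red circle is the highest for every gene but Nlrp2.

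Among the core members, Nlrp5 (also called MATER, an NLR-family protein whose loss was an early example of a maternal-effect defect in the mouse) was at 169 and 194 CPM in control A and B and at 474 and 65.0 CPM in knockdown A and B. Replicate A was above and replicate B below both controls. The fitted log2 fold change, knockdown against control, was -0.04 with a standard error (SE) of 0.78, and limma's adjusted p was 0.998. Its sign turned under quantile normalization (0.06), in edgeR (0.49) and in DESeq2 (0.48), so no direction is given for Nlrp5.

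Tle6, a Groucho-type co-repressor relative that binds Nlrp5 and Ooep in the complex, was at 64.5 and 51.0 CPM in controls and at 72.3 and 10.3 CPM in knockdown A and B. Replicate A was only slightly above the controls here and replicate B was far below them. Its log2 fold change of -1.02 (SE 0.78) was the most negative of the 8 and did not pass (limma, adjusted p 0.881).

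Ooep (FLOPED), a small protein with a KH-like domain at the core of the complex, had the widest spread. It was at 134 and 72.7 CPM in controls and at 949 and 49.5 CPM in knockdown A and B, or 26483 and 900 reads. The 2 knockdown libraries thus differed 19.2-fold from each other, against 1.84-fold between the controls. The log2 fold change was 1.14 (SE 1.12, limma adjusted p 0.907). It was 2.17 in edgeR (adjusted p 0.826) and 2.15 in DESeq2 (adjusted p 0.346, unadjusted p 0.00563), so the size depends on the tool.

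Khdc3 (FILIA), a second KH-domain member that has been linked to chromosome segregation in early cleavage, was low throughout. It was at 5.72 and 3.70 CPM in controls and at 7.53 and 1.82 CPM in the knockdown libraries, where the lowest value rested on 33 reads. The log2 fold change was -0.20 (SE 0.68, limma adjusted p 0.986), on a scale that understates changes at such low levels.

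Of the lattice genes, Padi6, a peptidylarginine deiminase family member that the lattices require, was at 136 and 118 CPM in controls and at 173 and 56.0 CPM in knockdown A and B. Nlrp4f, an NLR protein that associates with the complex, was at 1373 and 1460 CPM in controls and at 1737 and 739 CPM in the knockdown libraries. Both had knockdown replicate A above and replicate B below the controls, with the 2.35-fold difference of Nlrp4f being the smallest between knockdown libraries among the 8. Their log2 fold changes were -0.36 (SE 0.52) and -0.32 (SE 0.42), with adjusted p of 0.949 and 0.939 in limma.

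Nlrp2, another oocyte NLR gene of the group, was at 23.5 and 42.6 CPM in controls and at 38.2 and 11.0 CPM in the knockdown libraries. It was the exception to the shared order, since replicate A lay between the controls, which themselves differed more than for most members. Zbed3, a zinc-finger protein that partners the complex and takes part in placing the spindle, was at 2867 and 2038 CPM in controls and at 5329 and 1311 CPM in knockdown A and B. The log2 fold changes were -0.59 (SE 0.63, adjusted p 0.912) for Nlrp2 and 0.13 (SE 0.59, adjusted p 0.992) for Zbed3 in limma.

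None of the 8 passed an adjusted p of 0.05 over all genes in limma, and none had an unadjusted p under 0.05; of the 13332 genes tested 0 passed (percent called 0), and 726 (5.45%) had an unadjusted p under 0.05. Over all genes edgeR called 0 (758 unadjusted) and DESeq2 called 15 (0.113%), with no member among them. The members' median log2 fold change was -0.26, beside 0.02 for all genes tested. Within groups, the members' median SD was 0.29 on the log2 scale for control and 1.32 for knockdown libraries, against 0.24 and 0.49 for all genes.

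The outcome depended on which knockdown library was kept. Without knockdown replicate A, 6 of 8 members were called lower (Nlrp5, Tle6, Padi6, Nlrp2, Zbed3 and Nlrp4f; limma adjusted p 0.000866 to 0.0386), where 9% of 12547 genes were called lower and 6.1% higher. Without knockdown replicate B, 3 of 8 were called higher (Nlrp5, Ooep and Zbed3; adjusted p 3.71e-05 to 0.00237), where 2.32% of 12810 genes were called higher and 0.913% lower. These fits assume that the lone knockdown library varies as the controls do. Nlrp5 and Zbed3 were called in both fits with opposite signs, at -1.47 and 1.38 log2 units for Nlrp5 and at -0.88 and 1.14 for Zbed3.

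**Figure D2:**
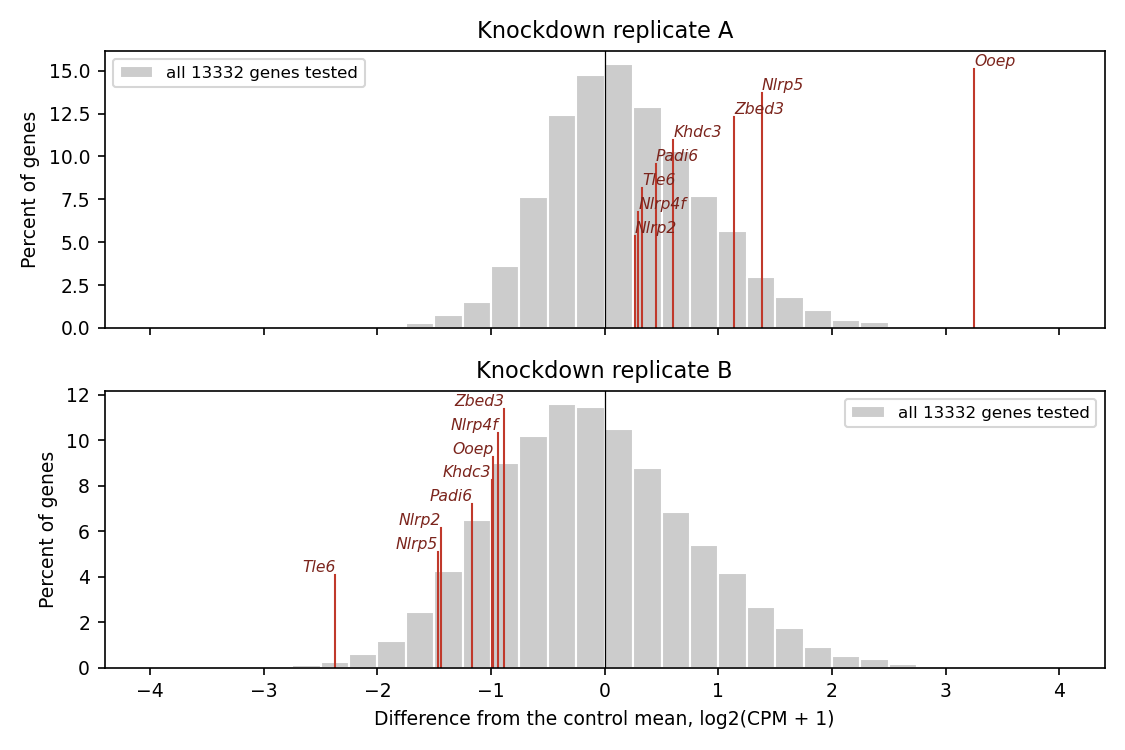
Percent of all tested genes (grey bars) by their difference from the control mean on the log2(CPM + 1) scale, in knockdown replicate A (top) and B (bottom), with differences beyond the axis placed in the end bars; red lines mark the 8 genes. The red lines stand at 0.26 to 3.25 in replicate A and at -2.37 to -0.88 in replicate B, where the median of all genes was 0.14 and -0.17.

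The members did not all move by the same amount. Leaving Zbed3 aside, Ooep took 27.5% of the other members' summed CPM in knockdown replicate A, against 7.02% and 3.74% in control A and B and 5.31% in knockdown replicate B. Nlrp4f took 50.3% in knockdown replicate A, against 72.0% to 79.2% in the other 3 libraries. These shares do not depend on the library total, and they show that the excess of replicate A was larger for Ooep than for Nlrp4f.

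Other maternal genes were examined from lists of relatives and partners. Of the 4 lattice partners listed, the ubiquitin ligase Uhrf1 was at 79.3 and 50.8 CPM in controls and at 99.0 and 36.1 CPM in knockdown A and B, the same order as the members. Nlrp14, which stabilizes Uhrf1 in the oocyte, was at 674 and 498 CPM in controls and at 1167 and 491 CPM in the knockdown libraries, again with A above and B below. Ube2d3, a ubiquitin-conjugating enzyme, differed from this, with both knockdown libraries (2210 and 3148 CPM) above both controls (1584 and 1386 CPM). The ubiquitin-ligase adaptor Skp1 was at 451 and 345 CPM in controls and at 816 and 367 CPM in the knockdown libraries. None of the 4 passed in limma (adjusted p 0.859 to 0.997).

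The Nlrp relatives, many of which are oocyte genes of the same family, were read in the same way: 7 of the 10 tested (Nlrp14 among them) had the controls between knockdown A and B in that order, against 19.1% of all genes. Nlrp9b was at 138 and 73.1 CPM in controls and at 485 and 66.7 CPM in knockdown A and B. Nlrp4a was at 189 and 196 CPM and at 265 and 128 CPM, and Nlrp4e at 284 and 214 CPM and at 294 and 112 CPM. Nlrp4b was at 42.3 and 37.6 CPM in controls and at 78.8 and 29.3 CPM in the knockdown libraries, and Nlrp4c at 15.7 and 14.4 CPM and at 16.5 and 2.2 CPM. Nlrp9a was at 547 and 433 CPM and at 749 and 292 CPM. Nlrp9c, at 1787 and 1212 CPM in controls, had both knockdown A (2926 CPM) and B (1607 CPM) above the lower control. The Nlrp4 and Nlrp9 genes are families of similar copies, and how reads shared between copies were counted is not given in the sources used here, so single values, that of Nlrp4f included, are uncertain.

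Among the KH-domain relatives, the controls lay between knockdown A and B in that order in 0 of 4 genes. Beside that share of all genes, a count of 0 of 4 is near the background and no contrast is read from it. Khdc1b was at 1825 and 1184 CPM in controls and at 1691 and 975 CPM in the knockdown libraries, and Dppa5a at 434 and 301 CPM and at 393 and 322 CPM. Khdc1a was at 27.5 and 22.8 CPM in controls and at 25.5 and 36.8 CPM in the knockdown libraries, and Khdc1c at 65.6 and 58.6 CPM and at 78.3 and 84.9 CPM. Among the Tle relatives Tle4 was at 87.8 and 122 CPM in controls and at 87.3 and 97.2 CPM in the knockdown libraries, and Tle1 at 21.8 and 12.6 CPM and at 22.3 and 12.9 CPM. In the control and knockdown libraries the other Padi genes were all under 2 CPM, so Padi6 was the sole Padi gene there with more than trace reads. Zbed4 was at 21.5 and 13.6 CPM in controls and at 21.1 and 22.6 CPM in the knockdown libraries, and Zbed6 at 22.4 and 23.2 CPM and at 13.8 and 40.9 CPM, without the members' order. None of the tested relatives passed in limma.

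**Figure D3:**
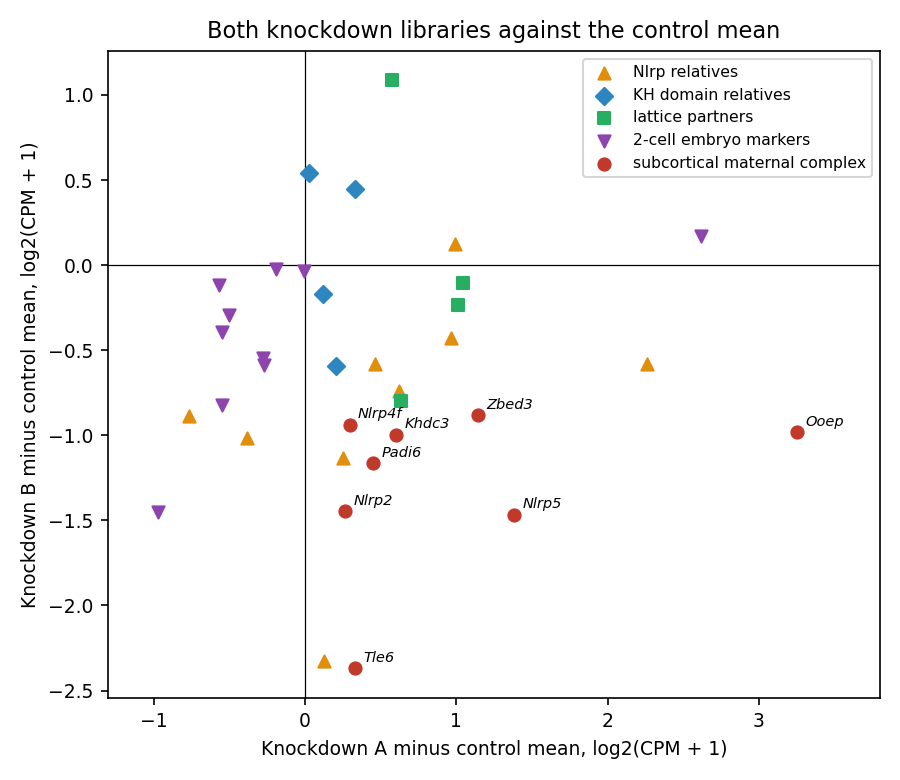
Difference of knockdown replicate A (horizontal) and B (vertical) from the control mean, log2(CPM + 1), for the 8 genes (red circles), Nlrp relatives, KH-domain relatives, lattice partners (Nlrp14 is drawn with these) and 2-cell markers. All 8 red circles lie right of 0 and below 0, as do 2 of the 4 KH-domain relatives and 0 of the 10 2-cell markers. Nlrp4a, Nlrp4b, Nlrp4c, Nlrp4e, Nlrp9a and Nlrp9b, and the lattice partners Uhrf1, Nlrp14 and Skp1, lie there too. Nlrp3, Nlrp9c, Nlrp12 and Ube2d3 do not.

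General oocyte markers were also higher in knockdown replicate A than in B, in 12 of 12, against 62.5% of all genes tested. Their median difference from the control mean was 1.18 in replicate A and -0.96 in replicate B. In 3 of 12 the controls lay between the knockdown libraries in that order on the CPM scale. That count is near the 19.1% of all genes, and no contrast is read from it. The summed CPM of the 12 was 15976 and 13079 in controls and 21527 and 12845 in knockdown A and B. The 10 2-cell markers differed from this, with medians of -0.39 and -0.34 in knockdown A and B. Whether the knockdown libraries' oocyte transcript content bears on the members' values was not tested; in pooled embryos, fewer embryos holding a transcript and less of it per embryo cannot be told apart.

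In the pulldown, Zbed3 stood out by its reads. It had the highest CPM of the 19390 listed genes in each of the 4 libraries, at 18531 and 22801 CPM in IgG A and B and at 33149 and 33269 CPM with His A and B. It supplied 91.8% and 91.0% of the members' summed CPM in IgG and 95.2% and 94.9% in His. In the separately normalized control embryos it was at 2867 and 2038 CPM, rank 20 and 35 of 17866 listed genes. These ranks are of reads and are not adjusted for transcript length. Both His libraries lay above both IgG libraries, with means of 33209 ± 84.9 and 20666 ± 3020 CPM (SD, n = 2 each). The log2 fold change was 0.69 (SE 0.11), and limma's adjusted p was 0.0224. The change was 0.28 with median rescaling (limma adjusted p 0.482) and 0.62 in edgeR (adjusted p 0.0547), so the call was lost in both. DESeq2 gave 0.37 and called it.

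His against IgG was read against a general shift. The median log2 fold change of the 11232 genes tested was 2.01, with 36.6% called in limma (35.7% higher and 0.917% lower), and 28.2% had no read in either IgG library; with those genes at their bounds the median was 2.34. The members' median was 0.38 (-0.03 with median rescaling), and it is the same with Nlrp2, which had no IgG read, at its bound. All 8 members passed the filter of 1 CPM in 2 libraries, but Nlrp2 (0 reads in both IgG libraries) and Tle6 (0 reads in IgG replicate A) would not have passed it on the IgG libraries alone and entered through the His libraries, where they are high. A call of either in this and the following counts is therefore no support for a difference. Of the 8 members, 1 was called lower (Ooep) and 2 higher (Zbed3 and, with that limit, Nlrp2); 4 had an unadjusted p under 0.05, as did 44.6% of all genes. Both His libraries lay above both IgG libraries in 4 of 8 members (54.1% of all genes) and below in 1 (9.06%), where 63.1% of all genes had groups apart in either direction. Marker sums differed between the groups as well: the 12 oocyte markers summed to 4712 and 6824 CPM in IgG A and B and to 16040 and 16114 CPM for His, and the trophectoderm markers to 1.69 and 1.5 CPM in IgG and to 181 and 166 CPM for His. Cumulus or granulosa cell markers summed to 5.91 and 0 CPM in IgG and to 54.0 and 59.6 CPM for His, and blood cell markers to 0 and 0 CPM and to 55.7 and 70.2 CPM; the part of these in the members' values was not tested. The IgG libraries differed from each other more than the His libraries did, with a median SD of 0.60 log2 units over the members in IgG and 0.18 in His. Over all genes tested these medians were 0.69 and 0.35.

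Ooep took a larger share of the reads in the IgG libraries. It was at 1066 and 925 CPM in IgG A and B and at 629 and 602 CPM with His A and B, so the groups did not overlap and His was lower. The means were 996 ± 99.7 and 615 ± 19.0 CPM (SD, n = 2 each), the log2 fold change was -0.69 (SE 0.15), and limma's adjusted p was 0.0443. The call lay near the threshold: the adjusted p was 0.0729 with a pseudocount of 5, 0.0875 without a filter, 0.182 after median rescaling, 0.335 after quantile normalization, 0.220 in edgeR and 0.00882 in DESeq2. With the replicate letter as a block in limma it was 0.130. The fold change was below 0 in each of these.

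Nlrp2 had no read in either IgG library and was at 11.1 and 15.7 CPM with His A and B (93 and 124 reads). Against 3 reads over the IgG group (0.283 CPM), the His mean of 13.4 CPM was at least 47.3-fold higher, given as a description with no test. Nlrp5 was at 1.69 and 11.1 CPM in IgG (10 and 52 reads) and at 73.2 and 62.1 CPM with His, above both. Its log2 fold change of 3.58 (SE 1.14) did not pass in limma (adjusted p 0.10) or edgeR (0.199) and passed in DESeq2 (0.00997). It was 2.50 without IgG replicate A (limma adjusted p 0.00288) and 4.67 without IgG replicate B (0.000334), and it passed in both fits. Tle6 had no read in IgG replicate A, 75.5 CPM in IgG replicate B and 243 and 296 CPM with His, and did not pass (log2 fold change 4.94, SE 2.54, limma adjusted p 0.256). Its log2 fold change was 1.82 without IgG replicate A; without IgG replicate B the one IgG library left had no read, so no fold is given, and the calls of Tle6 in these fits are no support for a difference.

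The other 3 members had overlapping groups. Padi6 was at 352 and 792 CPM with IgG and came to 389 and 468 CPM with His, with both His values between the IgG values. Nlrp4f was at 224 and 427 CPM with IgG and came to 314 and 340 CPM with His, again in between. Khdc3 was at 20.9 and 11.8 CPM with IgG and came to 13.7 and 8.46 CPM with His. Their log2 fold changes were -0.31 (SE 0.51), 0.08 (SE 0.47) and -0.50 (SE 0.79), with limma adjusted p of 0.738, 0.935 and 0.724. Under quantile normalization the change of Khdc3 was -2.96 (limma adjusted p 0.215).

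**Figure D4:**
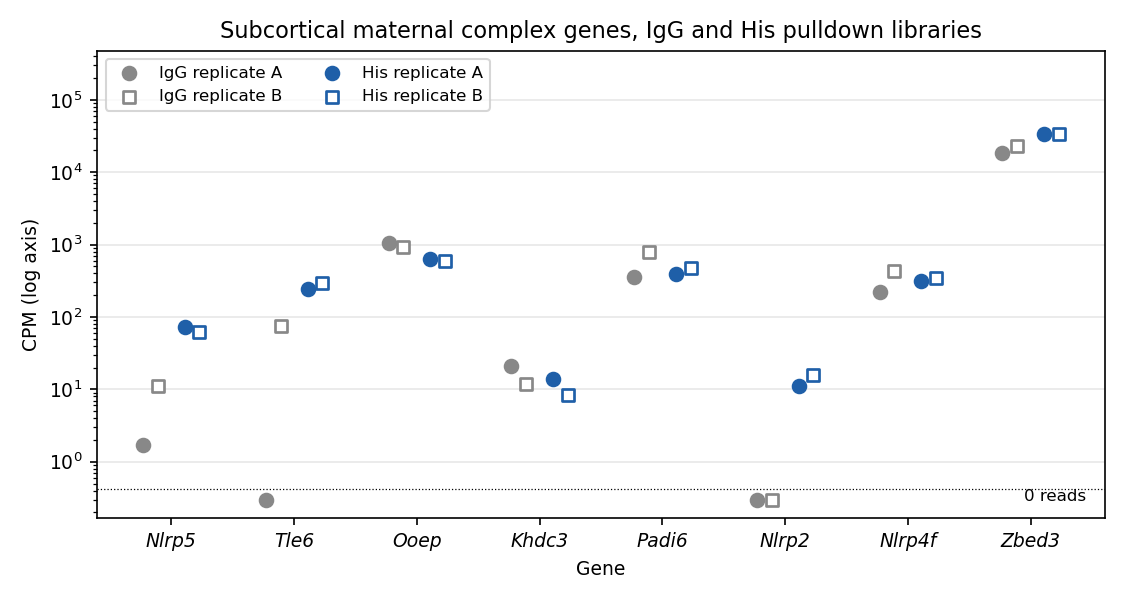
CPM (log axis) of the 8 genes in the IgG (grey) and His (blue) libraries, with filled circles for replicate A and open squares for replicate B; points under the dotted line had 0 reads. The blue points lie above the grey ones for Nlrp5, Tle6, Nlrp2 and Zbed3, below for Ooep, between them for Padi6 and Nlrp4f, and overlapping with them for Khdc3.

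These calls moved with the tool and the libraries. With edgeR on the recovered reads no gene passed (4592 of 11232 had an unadjusted p under 0.05), and Zbed3 had an adjusted p of 0.0547. With DESeq2, 4 members passed (Nlrp5, Ooep, Nlrp2 and Zbed3), where 49.1% of genes did (42.4% higher). Quantile normalization set Zbed3's change to 0, as it must for a gene ranked first in each library. With median rescaling, which moved the median of all genes to 1.79, the change of Zbed3 was 0.28 (limma adjusted p 0.482).

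With a lone library assumed to vary like the other group, and without IgG replicate A, 4 members were called higher and 2 lower in limma, where 51.1% and 18.0% of 10996 genes were; without IgG replicate B, 5 and 1 were, where 55.3% and 14.7% of 10972 genes were. The members called higher include Nlrp2 and Tle6 in both fits, with the limit given above; with 1 IgG library left, any gene needs a His library to pass the filter. With either His library left out, Zbed3 was the only member called, where 0.0593% of 6750 genes (without His A) and 0.0592% of 6754 genes (without His B) were called higher and 0.0296% in each case lower; Nlrp2 was then under the filter on low values.

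**Figure D5:**
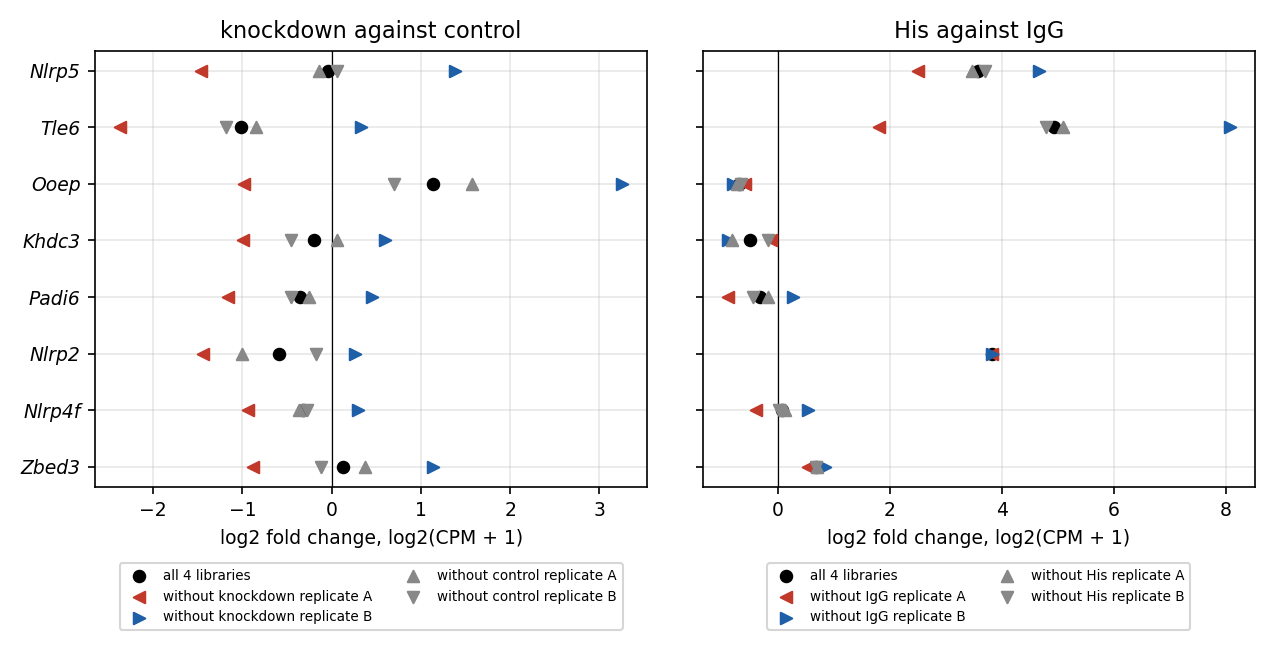
Log2 fold change, on the log2(CPM + 1) scale, of each gene with all 4 libraries (black) and with each library left out, for knockdown against control (left) and His against IgG (right). On the left, the red and blue points (knockdown A or B left out) lie on opposite sides of 0 for all 8 genes; on the right, the red and blue points (IgG A or B left out) do so for Padi6 and Nlrp4f, and the points of Nlrp2, and of Tle6 without IgG B, are set against 0 reads and depend on the pseudocount.

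The relatives in the pulldown were read in the same way. Among the lattice partners, Ube2d3 was at 285 and 207 CPM with IgG and came to 711 and 770 CPM with His and was called higher (log2 fold change 1.60, SE 0.30, limma adjusted p 0.0295). That change lay below the median of 2.01 over all genes tested, of which 35.7% were called higher. Uhrf1 was at 1263 and 1060 CPM with IgG and came to 1035 and 934 CPM with His, lower in both but not passing (adjusted p 0.341), and Skp1 was at 340 and 318 CPM and at 480 and 488 CPM (adjusted p 0.210). Nlrp14 had 0.675 and 67.1 CPM in IgG and 11.5 and 34 CPM with His (adjusted p 0.813). Of 9 Nlrp relatives tested, 2 were called higher in limma, where 35.7% of all genes were, and none was called lower. One was Nlrp4e (0.506 and 4.06 CPM in IgG, 100 and 102 CPM with His), and the other, Nlrp6, was named after its values were seen (no IgG read, 11.1 and 16.8 CPM with His). Neither would have passed the filter on its IgG libraries alone, so these values are a description and no test is given. None of the 4 KH-domain genes was called. The other calls among the relatives were of Tle1 (no IgG read, 18.3 and 16.9 CPM with His), Zbed6 (0.169 and 0 CPM in IgG, 4.54 and 10.4 CPM with His) and Padi4, which was also named after its values were seen (no IgG read, 11.1 and 7.96 CPM with His). All 3 passed the filter only through the His libraries, so these values are a description.

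Across the 8 libraries, with each gene centred within its table, the genes whose log2(CPM + 1) most resembled the mean of the members were Lsm7, Accsl, Npm2, Dlgap4 and Cenpx, out of 5316 compared. Pearson's r was 0.993, 0.993, 0.986, 0.980 and 0.975, and Spearman's rho was 0.976, 0.976, 0.929, 0.905 and 0.952; without the 2 libraries farthest from the median, r was 0.980, 0.968, 0.932, 0.942 and 0.891. These are the highest of many values, and the points share libraries and depth, so they are given as a description. Npm2, the egg's nucleoplasmin, was at 225 and 199 CPM in controls, at 497 and 91.6 CPM in knockdown A and B, at 151 and 438 CPM with IgG and came to 591 and 595 CPM with His. Each member was also compared with the mean of the other 7: r was 0.917 for Nlrp5 and 0.890 for Zbed3, 0.562 to 0.767 for Padi6, Nlrp2, Tle6 and Nlrp4f, and 0.293 and 0.109 for Ooep and Khdc3, the members lower in His than in IgG by mean along with Padi6.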

How the data were processed

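The authors deposited CPM, a gene's reads scaled to a fixed library total. Per the submitters' processing notes, Trim Galore 0.6.7, FastQC, HISAT2 2.2.1, featureCounts 2.0.1 and edgeR were used with build GRCm39; their settings are not given in the sources used here. Library construction was by Smart-seq2, per the labels' protocols; it carries no molecular identifiers and amplifies by PCR, so floors cover counting error only. All values (100%, within 0.01 read) were whole multiples of 1 read, so reads were recovered. Of 12 labelled samples 8 were used: 4 value columns of the pulldown table could not be assigned between the input and total RNA samples by name, so planned comparisons with those were not made.

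Tests used limma 3.58.1 in R 4.3.3 on log2(CPM + 1), for genes reaching 1 CPM in at least 2 of the 4 libraries (two-sided, mean-variance trend, only the comparison's 4 libraries), with Benjamini-Hochberg adjustment over all genes and a threshold of 0.05. Alternatives were pseudocounts of 0.1 and 5, no filter, median rescaling, quantile normalization, the replicate letter as a block, each library left out, and edgeR 4.0.16 and DESeq2 1.42.0 on recovered reads. The scripts were tested on simulated data. Named genes are the members, the lattice partners, relatives at a mean of 10 CPM or more in controls, and the 5 genes most like the members' mean. Members and lists were chosen with earlier results of these data known.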

Additional observations from a re-analysis of the deposited data

How the results depend on the processing

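In knockdown against control embryos, none of the 8 members passed under any alternative with all 4 libraries, and the members called ranged from 0 to 6 when 1 library was left out. Genes called over the whole table were 0 as reported, 2 with the replicate block, 15 with DESeq2 and 0 to 1894 when 1 library was left out. Directions turned for Nlrp5 with quantile normalization (0.060), edgeR (0.49) and DESeq2 (0.48). Ooep moved from 1.14 to 2.17 in edgeR and 2.15 in DESeq2. In the same order, Tle6 moved from -1.02 to -0.56 and -0.58, and Zbed3 from 0.13 to 0.38 and 0.37. Padi6 moved from -0.36 to -0.19 and -0.20, and Khdc3 from -0.20 to -0.07 and -0.08. Leaving out 1 library moved the log2 fold change across 0 for each member: Nlrp5 from -1.47 to 1.38, Tle6 from -2.37 to 0.33, Ooep from -0.98 to 3.25, Khdc3 from -0.996 to 0.60, Padi6 from -1.16 to 0.45, Nlrp2 from -1.44 to 0.26, Zbed3 from -0.88 to 1.14 and Nlrp4f from -0.94 to 0.30. The extremes were the fits without knockdown replicate A or B.

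In His against IgG, the 3 members called became 1 under median rescaling, 0 under quantile normalization, 0 in edgeR and 1 to 6 when 1 library was left out (Nlrp2 and Tle6, which entered through the His libraries, are in the 6), and the 4111 genes called became 0 with quantile normalization (2339 unadjusted), 0 with edgeR and 6 to 7679. Under median rescaling 3935 of 11232 genes were called in limma. The 1 member among them was Nlrp2, which entered through the His libraries, so its call is no support for a difference. Ooep and Zbed3 were lost there (limma adjusted p 0.182 and 0.482). Nlrp4f turned to -0.34 with median rescaling, -0.024 with edgeR and -0.26 with DESeq2. It ranged from -0.39 to 0.54 when 1 library was left out. Padi6 turned to 0.047 with quantile normalization and ranged from -0.89 to 0.28 when 1 library was left out. Khdc3 moved from -0.50 to -2.96 with quantile normalization. Nlrp5 moved from 3.58 to 2.80 with a pseudocount of 5 and 2.23 with quantile normalization, and ranged from 2.50 to 4.67 when 1 library was left out; Tle6 moved from 4.94 to 6.61 and 3.77 with pseudocounts of 0.1 and 5, 2.93 in edgeR and 2.73 in DESeq2. The lower counts without a His library come with fewer genes tested; the cause of the other changes was not tested.

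The letters A and B do not state that libraries were handled together. Same-letter deviations correlated at 0.15 in the knockdown table and -0.01 in the pulldown table. With the replicate block in limma, the members called in His against IgG were 2, where 3894 of 11232 genes were called. These members were Zbed3 and Nlrp2, and the call of Nlrp2, which entered through the His libraries, is no support for a difference. Ooep was lost (limma adjusted p 0.130). With 2 libraries a group and low reads for Khdc3 and Nlrp2, smaller differences were not detectable.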
